A study of Mus musculus with 2 samples.

Results

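The genes described are the 10 members of the SoxB, SoxC and SoxE groups of transcription factors, measured in embryonic mouse midbrain. They were chosen by symbol: each gene identifier, without its version, was looked up in GENCODE M21. All 10 symbols were found among 43346 measured genes, as 4 SoxB genes (Sox1, Sox2, Sox3 and Sox21), 3 SoxC genes (Sox4, Sox11 and Sox12) and 3 SoxE genes (Sox8, Sox9 and Sox10), with 13 annotated transcripts. RNA came from midbrains of B6NCrl embryos of both sexes at embryonic day 12.5, with no genotype or treatment named in the labels. The 2 libraries form 1 group: replicate 1 was a pool of 120 embryos and replicate 2 a pool of 88, and each library was made from 10 ng of RNA. Replicate 1 held 28212923 estimated counts on genes and replicate 2 held 36082643, and spike-in RNAs took 4.14% and 3.48% of all counts. With 1 tissue at 1 stage, the comparisons are among the Sox genes and between the pools.

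Sox proteins bind DNA through a high-mobility-group (HMG) box, a domain first known from the sex-determining factor Sry, and usually act together with partner factors. In the neural tube, Sox1, Sox2 and Sox3 keep progenitors undifferentiated, and Sox21, a repressor of the same group, opposes them. Sox4 and Sox11 activate genes of young postmitotic neurons. Sox9 marks neural stem cells before and during the start of gliogenesis and is also the main Sox factor of cartilage, while Sox10 and Sox8 act in neural crest derivatives and in the oligodendrocyte lineage.

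The HMG boxes are shown because they are where these genes are most alike, and so where reads from different members could be hardest to assign. The first 60 bases of each box are printed from the GENCODE M21 coding sequences on mm10, 5′ to 3′ on the coding strand. Capitals mark bases that differ from the most abundant member of the same group, which is Sox2 for SoxB, Sox11 for SoxC and Sox9 for SoxE.
Sox1: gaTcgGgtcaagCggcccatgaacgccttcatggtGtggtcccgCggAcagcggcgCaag
Sox2: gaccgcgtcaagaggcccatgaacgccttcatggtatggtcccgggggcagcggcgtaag
Sox3: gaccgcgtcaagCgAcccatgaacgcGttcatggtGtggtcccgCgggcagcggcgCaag
Sox21: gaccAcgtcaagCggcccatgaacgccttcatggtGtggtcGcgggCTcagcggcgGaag
Sox11: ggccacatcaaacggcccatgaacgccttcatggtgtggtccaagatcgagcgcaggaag
Sox4: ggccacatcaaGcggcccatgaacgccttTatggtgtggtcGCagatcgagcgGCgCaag
Sox12: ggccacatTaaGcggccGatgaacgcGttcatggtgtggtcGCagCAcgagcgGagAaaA
Sox9: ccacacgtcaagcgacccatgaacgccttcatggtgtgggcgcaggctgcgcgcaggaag
Sox8: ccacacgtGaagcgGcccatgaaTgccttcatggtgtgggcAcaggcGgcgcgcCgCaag
Sox10: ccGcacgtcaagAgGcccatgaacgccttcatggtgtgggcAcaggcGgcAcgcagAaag
In these 60 bases the other members differed from the reference member of their group at 6 to 11 positions. Over the full box of 237 bases, pairs within a group were identical at 81.4% to 89.5% of bases, and the 33 pairs from different groups at 64.6% to 73.0%. After translation of the box, identity was 88.6% to 96.2% within SoxB, 87.3% to 93.7% within SoxC, 93.7% to 98.7% within SoxE and 58.2% to 67.1% between groups. The SoxE genes were thus the closest at the protein level and the farthest apart within a group in bases. Over whole transcripts, the longest stretch shared exactly by any of the 45 pairs was 48 bases, between Sox4 and Sox11. Annotated length exceeded effective length by 99 bases for every transcript, as for reads of 100 bases, so no read of that length could match 2 members exactly.

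**Figure D1:**
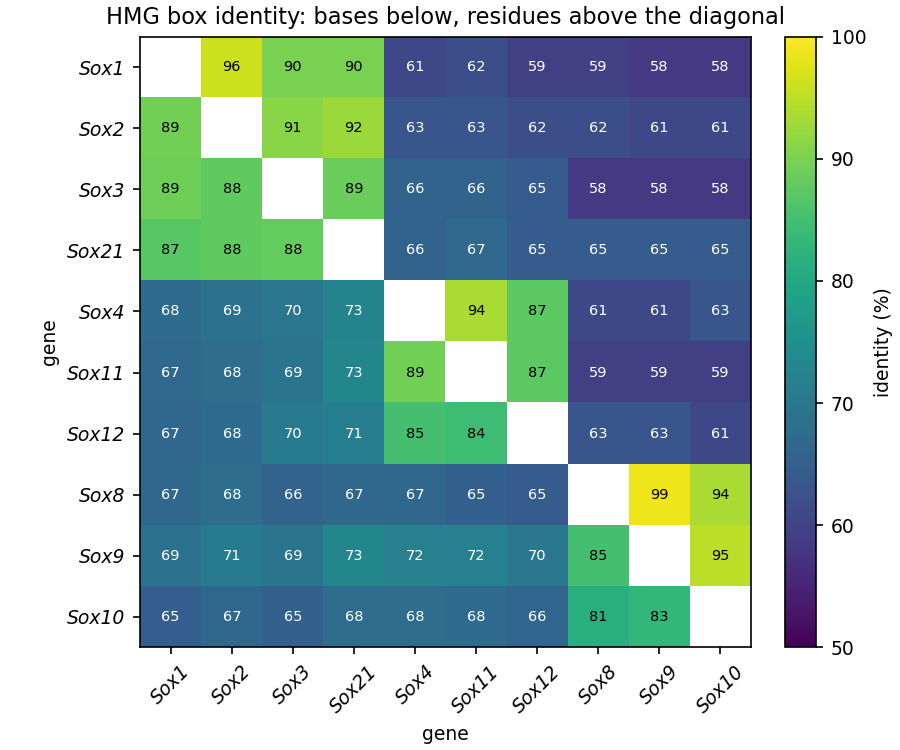
Identity of the HMG box between each pair of the 10 genes, in percent, with base identity below the diagonal and residue identity above it. Blocks of high identity follow the SoxB, SoxC and SoxE groups, and no pair from different groups passes 73.0% in bases.

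Levels are given as deposited TPM, a relative abundance that is normalised to transcript length and library and can be compared between genes. SoxC genes were the most abundant of the 3 groups, with a summed level of 782.48 TPM in replicate 1 and 719.09 TPM in replicate 2 (750.8 ± 44.8 TPM, SD, n = 2). SoxE genes followed with 111.33 and 126.72 TPM (119.0 ± 10.9 TPM), and SoxB genes with 86.74 and 78.08 TPM (82.4 ± 6.12 TPM). SoxC therefore exceeded SoxB by 3.17 and 3.20 on the log2 scale, or 9.11-fold, and this difference was far larger than the spread between libraries. SoxB was below SoxE in both libraries, with log2 ratios of -0.36 and -0.70. This order rests on the member list, which leaves out Sox14, a repressor of the SoxB kind at 32.46 and 35.86 TPM. With Sox14 added, SoxB would lie above SoxE in replicate 1 and below it in replicate 2. SoxC held 70.8% and 67.5% of the TPM of the 20 measured Sox genes, SoxE 10.1% and 11.9%, and SoxB 7.85% and 7.33%. One gene dominated SoxC and SoxE: Sox11 supplied 66.9% and 68.4% of SoxC TPM, and Sox9 supplied 97.2% and 95.9% of SoxE TPM. SoxB was more evenly divided, with 54.3% and 48.7% from Sox2 and 32.3% and 37.5% from Sox21.

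**Figure D2:**
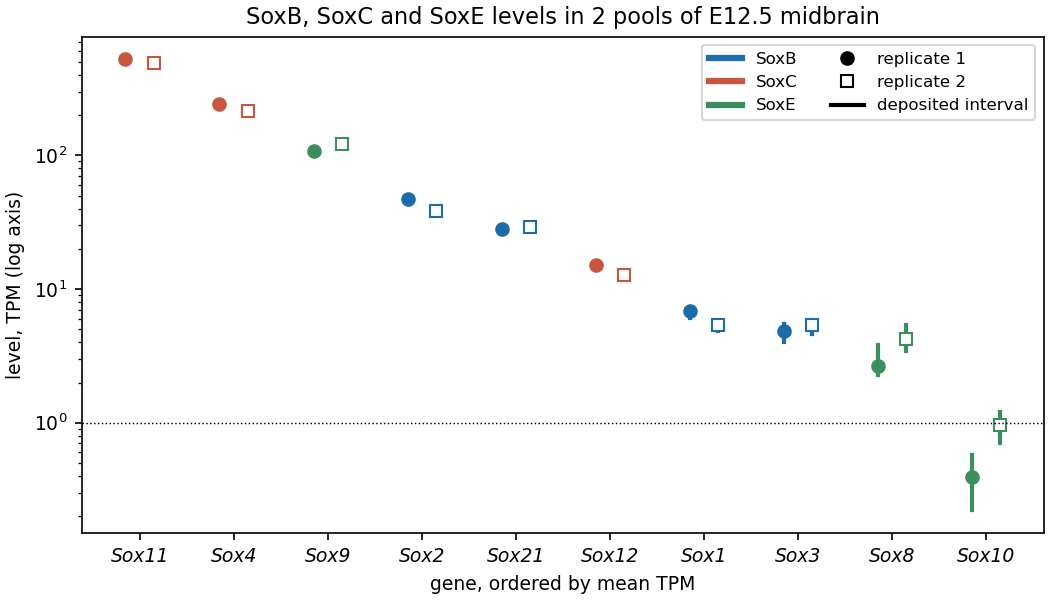
Level of each gene in TPM on a log axis, ordered by mean, with replicate 1 as filled circles, replicate 2 as open squares and the deposited intervals as vertical bars, which for abundant genes are shorter than the markers. Levels run from 507.5 TPM for Sox11 to 0.675 TPM for Sox10, and the dotted line is at 1 TPM.

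Of the 10 genes, 9 reached 1 TPM in both libraries and Sox10 in neither. The order by mean level was Sox11, Sox4, Sox9, Sox2, Sox21, Sox12, Sox1, Sox3, Sox8 and Sox10, and no gene's lower value fell below the higher value of the next. The closest neighbours were Sox1 and Sox3, at 5.39 and 5.36 TPM in replicate 2, where their deposited intervals overlapped. Their means differed by less than the SD of Sox1.

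Among the SoxB genes, Sox2, which maintains neural stem cells (chromosome 3, 34650405 to 34652461 in mm10), was highest, with 47.06 TPM in replicate 1 against 38.05 TPM in replicate 2. The annotation behind the counts gives Sox2 2457 bases and GENCODE M21 gives 2057, so its level per length rests on the longer model. Sox21, the repressor of the group (chromosome 14, 118233232 to 118237030), was at 28.00 and 29.28 TPM. Before length is taken into account, Sox2 and Sox21 were closer, with Sox2 counts 1.07 times those of Sox21 in replicate 1 and 0.828 times in replicate 2. The ratio of their TPM was 1.68 and 1.30, so the order of these 2 genes by counts changed between the pools and their order by TPM did not. Sox1, which is expressed in neural progenitors (chromosome 8, 12395295 to 12400126), was at 6.80 and 5.39 TPM. Sox3, an X-linked gene of the same progenitors (chromosome X, 60891366 to 60893430), was at 4.88 and 5.36 TPM. These 4 genes are each annotated with 1 transcript, which has a single exon in GENCODE M21.

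Among the SoxC genes, Sox11 (chromosome 12, 27334264 to 27342574) was at 523.15 and 491.94 TPM. Among 21461 protein-coding genes of the nuclear genome it had rank 172 in replicate 1 and rank 203 in replicate 2. Sox4 (chromosome 13, 28948919 to 28953713), which acts with Sox11 in young neurons, was at 244.24 and 214.30 TPM. Sox11 exceeded Sox4 by 2.14-fold and 2.30-fold in TPM, and by 3.75-fold and 4.01-fold in counts, because the Sox11 transcript has 8311 bases and that of Sox4 4795. Sox12 (chromosome 2, 152393611 to 152398063), the weaker activator of the group, was lowest at 15.09 and 12.85 TPM. The lowest SoxC gene thus lay above Sox1 and Sox3 of the SoxB group in both libraries.

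Among the SoxE genes, Sox9 (chromosome 11, 112782224 to 112787760) was at 108.26 and 121.50 TPM and was the third most abundant of the 10 genes. Sox8 (chromosome 17, 25565892 to 25570686), which acts with Sox10 in oligodendrocytes, was at 2.68 and 4.26 TPM from 124 and 218 counts. Sox10 (chromosome 15, 79154908 to 79165240), the SoxE factor of neural crest, Schwann cells and melanoblasts, was at 0.39 TPM from 18 counts and 0.96 TPM from 56 counts. In TPM, Sox9 exceeded Sox10 by 278-fold and 127-fold. The deposited intervals of Sox10 were 0.221 to 0.574 TPM in replicate 1 and 0.707 to 1.20 TPM in replicate 2, so the 2 intervals did not overlap. In bulk RNA, fewer cells of a type and less RNA per cell cannot be told apart.

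Only Sox12 and Sox8 are annotated with more than 1 transcript. Of Sox12, the single-exon transcript ENSMUST00000182625.1 was given 96.43% of the gene's abundance in replicate 1 and 85.69% in replicate 2. The other, spliced transcript had posterior mean counts of 91.8 ± 74.7 and 118 ± 95.8 (posterior SD), so its share was not resolved in either library. Of Sox8, the 3-exon transcript ENSMUST00000025003.5 took 85.91% and 70.12%, and the shorter ENSMUST00000173447.1 took 14.09% and 29.88%. That shorter transcript rested on 5.55 and 23.66 estimated counts. Since a larger share of a short transcript lowers the mean length of the gene, the Sox8 log2 ratio between pools was 0.67 in TPM and 0.44 in counts.

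Several members lie across a gene on the opposite strand, and for Sox4 this bears on its value. The long noncoding RNA Gm26735 (chromosome 13, 28943048 to 28951671, plus strand) has 2649 bases, of which 2616, or 98.8%, lie within the 3′ untranslated region of Sox4. Its only bases outside Sox4 are a first exon of 33 bases (chr13:28943048-28943080, plus strand, mm10). This exon is printed because, apart from strand, only a read that touches it carries sequence that Sox4 lacks.
Gm26735 first exon: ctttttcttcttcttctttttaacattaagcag
Gm26735 was given 0 counts in replicate 1 and 709 in replicate 2, or 0 and 12.41 TPM. The deposited TPM intervals reached up to 2.58 TPM in replicate 1 and ran from 8.34 to 15.7 TPM in replicate 2. Its posterior mean counts were 41.75 ± 37.72 and 712.11 ± 106.18, and the posterior SD of Sox4 had the same 2 values. The uncertain reads were thus the same for both genes. The sources used here do not say whether the counting used strand. For Sox4 the effect was small: Gm26735 held 3.05% of their joint counts in replicate 2, and the ratio of replicate 2 to replicate 1 was 0.859 for Sox4 alone and 0.886 (95% exact binomial interval 0.869 to 0.903) for the sum.

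**Figure D3:**
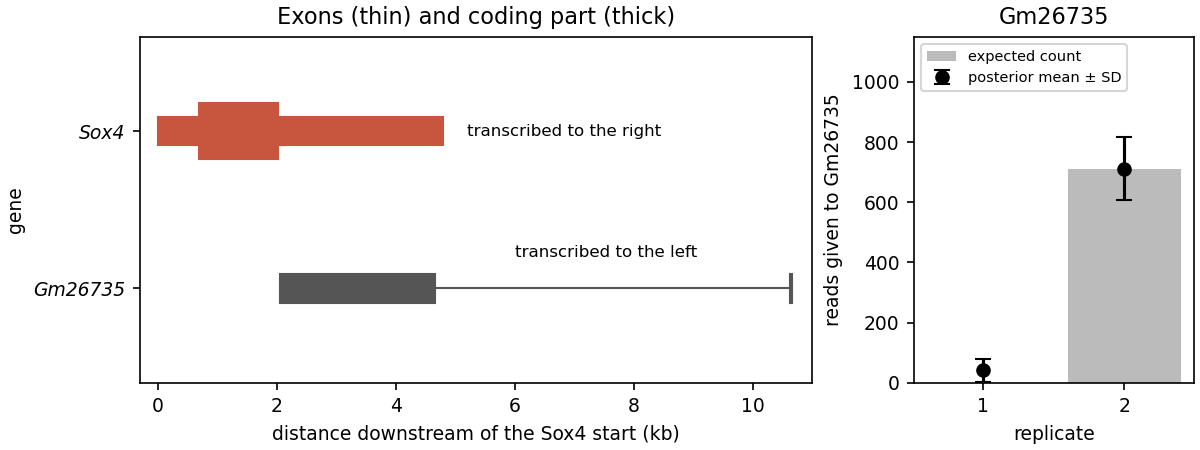
Left, exons of Sox4 and Gm26735 by distance in kb from the Sox4 start, where the long Gm26735 exon lies under the Sox4 3′ end and the first Gm26735 exon is outside it. Right, counts given to Gm26735 in each replicate, with bars for the expected count (0 and 709) and points for the posterior mean ± SD.

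Sox21 shares 713 bases with the long noncoding RNA Gm4675 on the opposite strand, which had 183 and 314 counts. The posterior SD of Sox21 was 6.69 and 8.74 counts, the same as that of Gm4675, against 1835 and 2427 counts for Sox21 itself. Sox8 shares 329 bases with the antisense gene 2810468N07Rik, at 46 and 83 counts, and there the posterior SD of both genes was 0. Sox1ot, which surrounds Sox1 on the same strand, shares no exonic base with it and was at 1.52 and 2.20 TPM. Apart from the 3 opposite-strand genes, no gene shared a stretch of 100 bases with any member.

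Between the pools, no member was called: a call required a mean level of 1 TPM or more, a 1.5-fold ratio or more in either direction, and a two-sided exact binomial test of the counts with a Benjamini-Hochberg adjusted p under 0.05. The same rule called 539 of 15199 genes (3.55%), 325 of them higher in replicate 2 (2.14%) and 214 lower (1.41%). With 9 members at a mean of 1 TPM, a count of 0 is near that background. Without the fold and TPM conditions, 8 of 10 members were under an adjusted p of 0.05, against 22.8% of all tested genes. Where counts are high, small ratios pass such a test. Of these 8, 3 were higher in replicate 2 (Sox8, Sox9 and Sox10) and 5 lower (Sox1, Sox2, Sox4, Sox11 and Sox12). A negative binomial exact test of edgeR adds a spread between libraries estimated over all genes. It put 0 of the 10 under an adjusted p of 0.05, and Sox10 alone under an unadjusted p of 0.05, at 0.00322. The spread came from these same 2 libraries, taken as replicates. That test therefore asks whether a gene differs more than most genes do between them. Both tests compare these 2 libraries and not conditions. The labels give separate pools, so the p-values do not speak of single embryos.

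All 3 SoxC genes were lower in replicate 2. Sox11 had 76113 and 90499 counts, a ratio of 0.920 (95% interval 0.912 to 0.929) after scaling for library size, with an adjusted p of 4.82e-61 in the exact binomial test with Benjamini-Hochberg adjustment. Sox4 had 20320 and 22544 counts, a ratio of 0.859 (0.843 to 0.875). Sox12 had 1161 and 1242 counts, a ratio of 0.828 (0.764 to 0.898). On the log2 scale these were -0.12, -0.22 and -0.27. For the 7181 genes with a mean of at least 1000 counts, the SD of the log2 ratio was 0.141, which is larger than the Sox11 difference and smaller than those of Sox4 and Sox12. In the negative binomial exact test of edgeR the unadjusted p were 0.533 for Sox11, 0.254 for Sox4 and 0.177 for Sox12. The summed SoxC counts gave a ratio of 0.907.

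The SoxB genes divided. Sox2 was lower in replicate 2, at 0.791 (95% interval 0.743 to 0.843), as was Sox1, at 0.777 (0.691 to 0.874), with adjusted p of 7.63e-12 and 0.000255 in the exact binomial test. The Sox2 log2 ratio of -0.34 was the largest in size among members with a mean of at least 1000 counts, and its unadjusted p in the negative binomial exact test was 0.0879. Sox21, at 1.02 (0.963 to 1.09), and Sox3, at 1.07 (0.879 to 1.32), had intervals that held 1, with adjusted p of 0.666 and 0.695 in the same exact test. The upper bound for Sox3 shows that its 170 and 236 counts leave room for a ratio of 1.32.

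All 3 SoxE genes were higher in replicate 2, by ratios that were larger where counts were fewer. Sox9 was at 1.10 (95% interval 1.07 to 1.13), Sox8 at 1.36 (1.09 to 1.71) and Sox10 at 2.41 (1.39 to 4.35). Their adjusted p in the exact binomial test were 6.46e-09, 0.0313 and 0.00632. In the negative binomial exact test of edgeR, adjusted p were 1.00, 0.905 and 0.145. Sox10 passed 1.5-fold but was under 1 TPM in both libraries. The median log2 ratio of the 10 members was -0.04, and that of all tested genes at a mean of at least 1 TPM was -0.00101.

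**Figure D4:**
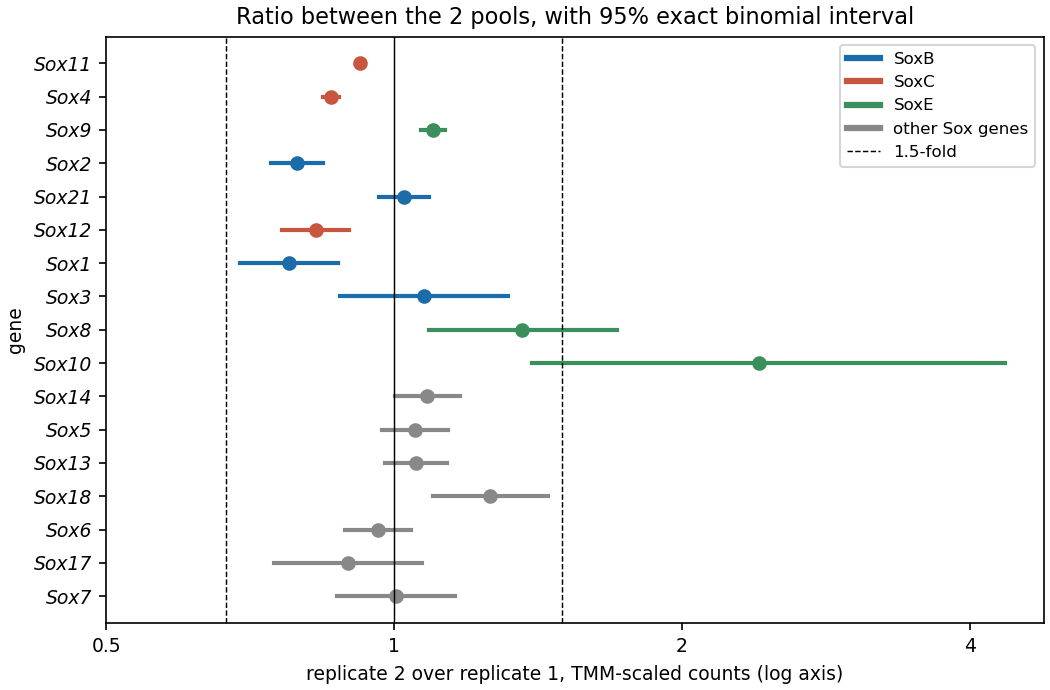
Ratio of replicate 2 to replicate 1 in library-scaled counts on a log axis, with 95% exact binomial intervals, for the 10 genes and for the other Sox genes at a mean of at least 1 TPM. Sox10 is the only one past the dashed 1.5-fold lines, and its interval, 1.39 to 4.35, is the widest.

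Markers of cell types in which SoxE factors act were read beside these ratios. Of 9 neural crest and Schwann cell genes, 5 were at 1 TPM or more in both libraries, and the summed level of all 9 was 174.9 and 194.4 TPM. Most of that sum came from the transcription factor Tfap2b (74.55 and 81.95 TPM) and the endothelin receptor Ednrb (71.34 and 78.11 TPM), both of which neural tissue also expresses, and from the neurotrophin receptor Ngfr (17.44 and 19.79 TPM). The more restricted genes Foxd3 and Erbb3 were under 1 TPM in both. None of the 5 was called, and their median log2 ratio was 0.11. Of the 5 melanoblast genes, Kit, which other cells also express, was at 16.08 and 14.42 TPM, and Mitf, Dct, Pmel and Tyr were under 1 TPM in both libraries.

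Cartilage genes were higher in replicate 2. Of 7 genes at a mean of 1 TPM, 6 were called higher and 0 lower, with a median log2 ratio of 1.04. The collagen Col2a1, a known target of Sox9, was at 109.82 and 161.05 TPM, Col9a3 at 16.44 and 33.45 TPM and Col9a1 at 8.69 and 19.30 TPM. Matn4 was at 2.28 and 11.16 TPM, and Col9a2 and Col11a2 were the other called genes. In the negative binomial exact test of edgeR, 5 of these 6 stayed under an adjusted p of 0.05, and Col2a1, with a count ratio of 1.502 (95% interval 1.46 to 1.54), was at 0.119. Acan, Matn1, Matn3 and Comp of the same list were under 1 TPM in both, outside the call rule, and all had more counts in replicate 2. Matn1 had 0 and 31 counts and Acan 21 and 75, with adjusted p of 5.34e-07 and 0.000142 in the exact binomial test, and of 1.1e-05 and 0.0214 in the negative binomial exact test. Comp had 1 and 10 counts and Matn3 18 and 33, with adjusted p of 0.103 and 0.477 in the exact binomial test. The whole list summed to 154.3 and 254.9 TPM. Mesenchyme genes, led by Col3a1, Col1a1 and Col1a2, summed to 1069 and 1517 TPM with 0 of 5 called and a median log2 ratio of 0.45. The part of these cells in the higher SoxE counts of replicate 2 was not tested. Sox5 and Sox6, which act with Sox9 in cartilage, had count ratios of 1.05 (95% interval 0.971 to 1.14) and 0.962 (0.889 to 1.04). In TPM the Sox5 difference was larger, at 28.65 and 36.19 TPM. The mean length given to Sox5 was 2252 bases in replicate 1 and 1929 in replicate 2.

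Oligodendrocyte precursor genes went in both directions between the pools. Olig2, which specifies motor neurons and oligodendrocytes, was at 9.39 and 5.04 TPM, and Olig1 at 4.10 and 1.95 TPM, and these were the genes called lower of 6. The list summed to 55.23 and 49.98 TPM, and its part in the SoxE ratios was not tested. The most abundant genes of that list were Mbp at 16.80 and 16.44 TPM, Pdgfra at 11.47 and 16.83 TPM and Nkx2-2 at 11.47 and 7.65 TPM. Bulk RNA does not show which cells these transcripts came from, so their levels are not a measure of oligodendrocyte precursors. Of the 5 gliogenic genes, Nfib (31.14 and 32.79 TPM) and Nfia (22.61 and 23.26 TPM), which act after Sox9 in the start of gliogenesis, and Aldh1l1 were detected, and the astrocyte genes Gfap and S100b were under 1 TPM in both. None of the 3 was called.

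**Figure D5:**
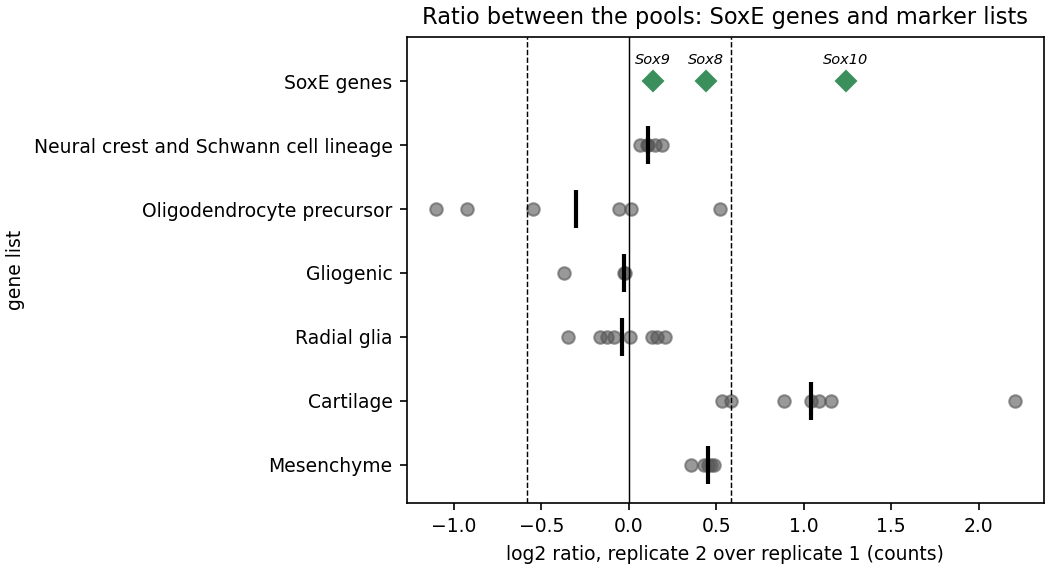
Log2 ratio of replicate 2 to replicate 1 in counts for the SoxE genes (diamonds) and for genes of 6 marker lists at a mean of at least 1 TPM (circles), with list medians as black bars and 1.5-fold as dashed lines. Cartilage genes lie highest, with a median of 1.04, and the neural crest and Schwann cell median is 0.11.

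Markers of progenitors and young neurons, the cells in which SoxB and SoxC genes act, went in both directions between the pools. The 8 radial glia genes, led by the filament gene Vim, the lipid-binding Fabp7 and the Notch target Hes5, had a median log2 ratio of -0.04. Among them the Notch target Hes1 had a ratio of 0.787 (95% interval 0.709 to 0.874), close to that of Sox2, and the glutamate transporter gene Slc1a3 had 1.15 (1.09 to 1.22). The 8 young neuron genes, led by the tubulin Tubb3, Stmn2 and the filament gene Ina, had -0.07. Tead2, which stands in that list, is also expressed by progenitors. No gene of either list was called, while 7 of 8 radial glia genes and 5 of 8 neuron genes had an adjusted p under 0.05 at any fold. The 5 endothelial genes had a median of 0.22 with 0 called.

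Partners and regulators of the Sox factors were measured from lists as well. Of 6 expressed partners of SoxB factors, Pax6, which acts with Sox2 in the developing lens, was called, at 60.02 and 17.67 TPM, or 3.37-fold lower in replicate 2. The chromatin remodeller Chd7 (111.85 and 104.77 TPM), Pou3f2 (74.01 and 65.87 TPM) and the other expressed POU factors were not called, and the pluripotency factor Pou5f1 had 1 and 0 counts. Of 10 regulators of neural tube progenitors, the neurogenic factor Neurog2 (125.18 and 68.48 TPM) and the signals Wnt1 (10.55 and 7.17 TPM) and Fgf8 (4.58 and 3.55 TPM) were called lower in replicate 2. The count ratios behind these calls were 0.536 for Neurog2, 0.665 (95% interval 0.577 to 0.767) for Wnt1 and 0.623 (0.439 to 0.882) for Fgf8, the last from 77 and 62 counts. The calls of Wnt1 and Fgf8 were lost in the negative binomial exact test of edgeR, with adjusted p of 0.246 and 0.586. Hes5, at 642.77 and 717.03 TPM, and the chromatin remodeller Smarca4, at 152.20 and 146.88 TPM, were the most abundant regulators and were not called.

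The pools also differed in forebrain markers, which were lower in the same pool as Sox1, Sox2 and the SoxC genes. Of 9 forebrain genes, Dlx1 (48.18 and 30.63 TPM), Nkx2-1 (7.48 and 4.29 TPM), Emx1 (6.36 and 2.74 TPM) and Tbr1 (3.24 and 1.26 TPM) were called lower in replicate 2, and the list's median log2 ratio was -0.47. In the negative binomial exact test of edgeR the call of Dlx1 was lost, with an adjusted p of 0.0671, and Nkx2-1 was at 0.0497. Lhx2, at 106.92 and 90.89 TPM, was the most abundant of them. The 6 midbrain genes, led by Otx2 (146.55 and 141.78 TPM), Pax3 (43.17 and 51.08 TPM) and Dmbx1, were all at 1 TPM or more in both libraries with 0 called, and their median was 0.23. The part of forebrain tissue in the lower Sox1, Sox2 and SoxC counts of replicate 2 was not tested.

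The other 10 Sox genes together reached 124.51 and 141.63 TPM, or 11.3% and 13.3% of all Sox TPM. Sox14, the second repressor of the SoxB kind and a gene of GABAergic midbrain neurons, was at 32.46 and 35.86 TPM, above Sox21. Sox5 was at 28.65 and 36.19 TPM, Sox13 at 25.03 and 27.79 TPM and Sox6 at 11.50 and 11.04 TPM. The endothelial genes Sox18, Sox17 and Sox7 were at 12.39 and 15.97, 8.13 and 8.09, and 6.16 and 6.32 TPM. Sox30 and Sox15 were under 1 TPM and Sry was listed at 0 in both. None was called, and only Sox18 passed the exact binomial test at any fold, with a ratio of 1.26 (95% interval 1.10 to 1.45) and an adjusted p of 0.00599.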

How the data were processed

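RNA longer than 200 nt was extracted with mirVana, per the labels, and the protocol links a SMARTer Ultra Low kit manual although the libraries are labelled total RNA. The authors deposited RSEM-type tables of expected counts, which can be fractional, for genes and transcripts. They also deposited TPM, scaled for effective length and depth, with posterior means and credibility intervals. Isoform percent, as deposited, divides each gene's abundance among its transcripts. A deposited TPM need not lie in its own interval, and for Sox11, Sox4 and Sox9 it lay above it in at least 1 library. The annotation was GENCODE M4 on mm10, per the deposited readme, and strandedness, like the aligner, was not given in the sources used here. Names, coordinates and sequences came from GENCODE M21 on mm10 (42462 of 43346 identifiers matched).

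Expected counts were rounded, spike-ins were left out, and libraries were scaled by TMM in edgeR 4.0.16 (R 4.3.3), with factors 0.995 and 1.005. Genes with at least 10 summed counts (18939) entered a two-sided exact binomial test between the libraries, with Benjamini-Hochberg adjustment over all of them. Log2 ratios had 0.5 counts added. Ratio intervals are 95% exact binomial intervals and, like floors, cover counting error only. Alternatives used DESeq2 1.42.0 size factors, total counts, other thresholds, posterior mean TPM, rescaled TPM, counts without length and a negative binomial exact test of edgeR. The scripts used Python 3.11.15, numpy 2.4.6, pandas 2.3.3 and scipy 1.17.1. Of the steps, only the exact binomial test was tried on simulated counts. Those counts held counting error and no further spread between libraries, so they do not measure false calls in these data.

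The members and lists were chosen with earlier results of these data known. Named were all members, the other Sox genes and, from each list, the 3 most abundant genes, every called gene and the genes under 1 TPM, of which a few are not reported here by name. Other genes named were chosen after their values were seen. Likeness of pattern was not computed, since 2 libraries give 1 ratio per gene.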

Additional observations from a re-analysis of the deposited data

How the results depend on the processing

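The order of the group sums held under every alternative tried. Rescaling multiplies all genes of a library alike, and each library alone already gave this order. Neither rescaling nor leaving out a library could therefore change it. Sox14 was in none of the sums. Of 72 alternative log2 ratios of members between the pools, 0 reversed, but not all of them could. The negative binomial test repeats the main ratio, and other pseudocounts barely change it. At a threshold of 5 TPM, 7 members counted as detected. Rescaling TPM over nuclear protein-coding genes raised the sums to 104.3 TPM for SoxB, 950.0 TPM for SoxC and 150.4 TPM for SoxE, and moved the levels of 8 of the 10 members by more than 1 SD (all but Sox8 and Sox10). Without length normalisation the log2 ratio of SoxC to SoxB was 4.44 and that of SoxB to SoxE -0.95. Without a fold threshold 7 of 9 members and 4009 of 15199 genes were called. With no minimum TPM, an alternative chosen after seeing the data, 1 of 10 members (Sox10) and 849 of 18939 genes were called. A 2-fold threshold called 213 of 15199 genes and the negative binomial test of edgeR 201, with 0 members called by either. Leaving out each library in turn gave sums of 78.1 to 86.7 TPM for SoxB, 719.1 to 782.5 TPM for SoxC and 111.3 to 126.7 TPM for SoxE. The log2 ratios were then 3.17 to 3.20 for SoxC over SoxB and -0.70 to -0.36 for SoxB over SoxE, and the top isoform took 85.7% to 96.4% of Sox12 and 70.1% to 85.9% of Sox8. No paired analysis was possible because the 2 libraries form 1 group. Depth limits Sox10, Sox8 and Sox3 most, with 18 to 236 counts.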
